A study of Rattus norvegicus with 19 samples.

Results

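The supraoptic nucleus (SON) of spontaneously hypertensive rats (SHR) was compared with that of normotensive Wistar Kyoto rats (WKY) across all genes of the array. The members were taken by title, as the 4 arrays of the SHR SON and the 5 arrays of the WKY SON, 9 of the 19 arrays of the series. SHR is an inbred strain that develops hypertension without treatment, and the control strain WKY shares its ancestry. The rats were male, untreated and labelled as 12 weeks old in both strains. Both are separate inbred lines, so strain and hypertension cannot be told apart. RNA of fine-dissected, pooled nuclei was amplified once and hybridised to Affymetrix rat genome arrays. The other 10 arrays, 5 of SHR and 5 of WKY, hold the paraventricular nucleus (PVN) and were used only where the strain differences of both nuclei were compared.

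The SON is a cluster of magnocellular neurones at the base of the hypothalamus. They make vasopressin and oxytocin as large precursors, pack them with convertases and granins into dense-core granules, and send them down long axons to the posterior pituitary. The nucleus lies beneath the meninges and is densely supplied with vessels, so a dissected SON also holds fibroblasts of the meninges, mural cells (the smooth muscle cells and pericytes of the vessel wall) and endothelium. In RNA of a whole nucleus, fewer cells of a type and less RNA per cell cannot be told apart.

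Median signals of the 9 arrays were between 38.2 and 43.5 as deposited, and each array was scaled to a common median. The floor was a signal of 3.77, the 10th percentile, or 1.91 on the log2 scale, and lower signals were raised to it. All values below are log2 signals and all differences are SHR minus WKY on that scale, so that 1 stands for a doubling. Signals of different probe sets are not set against each other. The mean correlation of an array with the others of its group was between 0.971 and 0.978 in SHR and between 0.961 and 0.976 in WKY, with WKY array 3 the lowest. The markers of the nucleus were present in both strains. Vasopressin (Avp) had 12.45, 12.13, 12.16 and 12.33 in SHR, against 12.28, 11.93, 12.17, 12.56 and 12.98 in WKY (difference -0.12, adjusted p = 0.772). Oxytocin (Oxt) had 12.23, 12.00, 12.02 and 12.18 in SHR, against 11.86, 11.81, 11.90, 12.39 and 12.73 in WKY (difference -0.03, adjusted p = 0.948). The strains overlapped for both hormones.

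Of 16190 probe sets tested with limma, two-sided and with Benjamini-Hochberg adjustment over all of them, 124 passed both an adjusted p of 0.05 and a 2-fold limit and are named called below. There were 60 higher in SHR, 0.371% of those tested, and 64 lower, 0.395%. The split depended on the scaling, with 80 higher and 56 lower on the values as deposited and 304 higher and 26 lower with arrays centred on the mean of the pan-neuronal genes. Without the 2-fold limit, 209 rose (1.29%) and 377 fell (2.33%), against 359 and 322 on the values as deposited, and at an unadjusted p under 0.05 the shares were 6.47% and 12.9%. The median difference of all tested probe sets was -0.04. For 121 of the 124 called probe sets the arrays of the strains did not overlap, which held for 468 higher and 1124 lower probe sets among all tested. A single gene symbol was known for 70 of the 124, which stand for 66 genes, 31 higher and 35 lower, and the other 54 are not named here. The labels do not say that the arrays came from separate rats, so the p-values measure the spread between pooled samples.

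Few genes of any neuronal or cell type list passed the test singly, and each list is given by its counts, its median and its mean on each array. The lists were described at an adjusted p under 0.05 with no fold limit. In a list each gene stood for its brightest probe set. A gene called on a dimmer probe set can therefore count as not passing in its list. The background of the list counts is all tested probe sets, of which 1.29% passed higher and 2.33% lower. Their median was -0.04, so most of them also lay below 0. Their exact share below 0 was not taken, nor how often list means do not overlap. Of 28 tested pan-neuronal genes, 27 had a difference below 0 and 5 passed the test, all lower: Thy1, Reep1, Nrsn1, Ina and Syn2. The list mean was 9.26, 9.32, 9.26 and 9.23 on the SHR arrays, against 9.66, 9.66, 9.48, 9.70 and 9.59 on the WKY arrays. The strains did not overlap, and the SHR arrays lay close together. The median difference of the list was -0.30, against -0.04 for all tested probe sets. Centring the arrays on the pan-neuronal mean itself moved the median of all genes by 0.34, to 0.30, and that of this list to 0.04, so that the direction of this list turned with the scaling. The medians of the neuropeptide, granule, synaptic, channel, receptor, transport and endothelial lists turned in the same way, and list medians were therefore also read relative to all genes. The list lay below the median of all genes on all 4 scalings tried (common median, quantile, as deposited and pan-neuronal mean). Its relative medians were between -0.265 and -0.197. Apart from the quantile scaling, these shift every gene of an array alike, which this reading cancels except at the floor and filter. For this list and those below, only the quantile value is thus a separate check, here -0.197. The 3 pan-neuronal genes with the highest signals did not pass: Snap25, of the vesicle fusion complex, differed by -0.19 (adjusted p = 0.321), Stmn3 by -0.12 (adjusted p = 0.589) and the glycolytic enzyme Eno2 by -0.29 (adjusted p = 0.123).

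**Figure D1:**
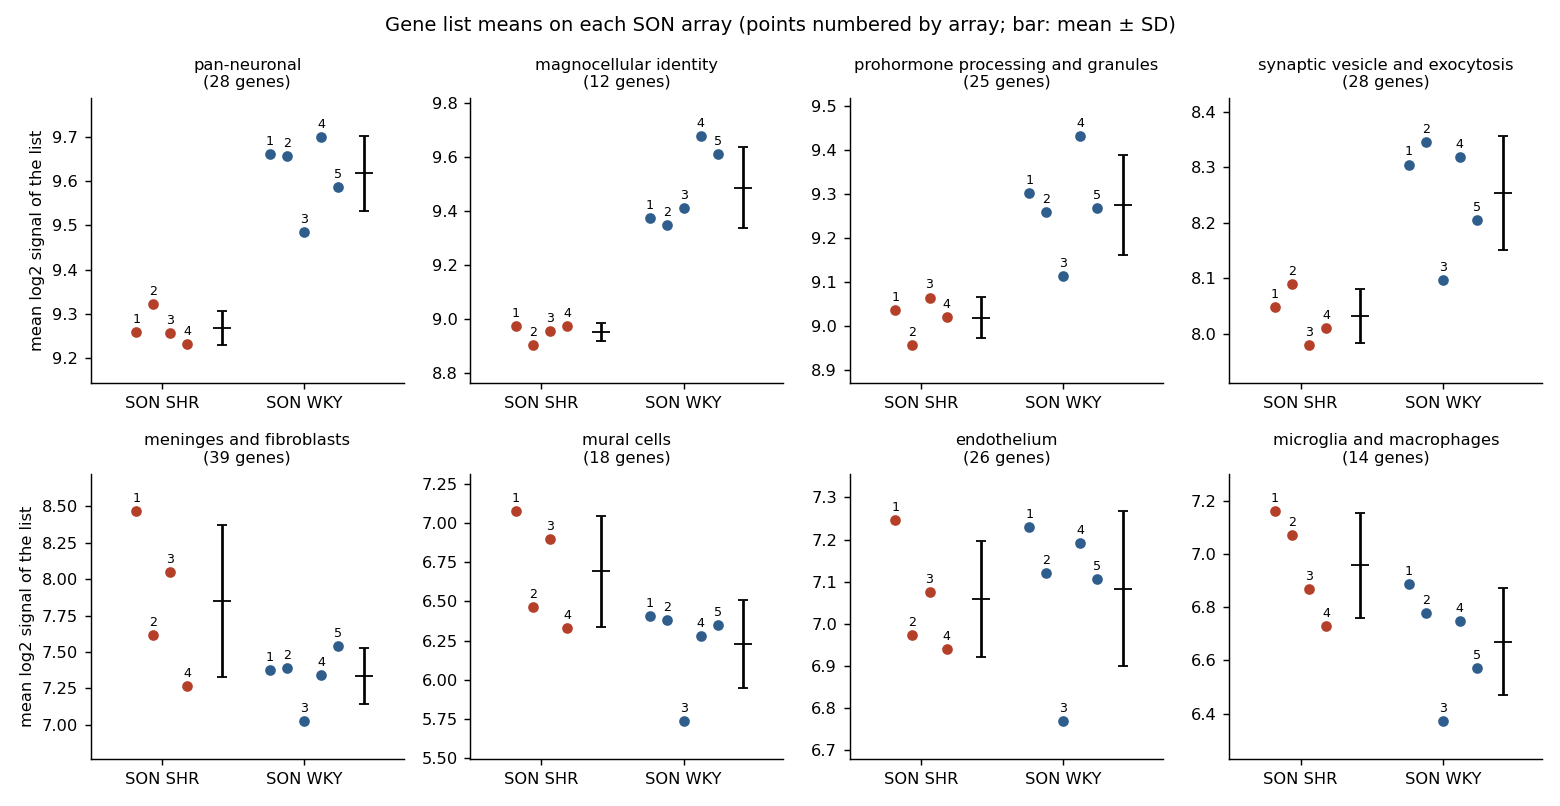
Mean log2 signal of 8 gene lists on each SON array, with SHR left of WKY and points numbered by array; bars give the mean ± SD of 4 SHR and 5 WKY arrays. The neuronal and granule lists of the 4 SHR arrays lie below all WKY arrays, whereas in the meningeal and mural lists SHR arrays 1 and 3 stand high and the strains overlap.

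Of the pan-neuronal list, Thy1, a surface glycoprotein of neurones, was the gene that was also called. It had 7.86, 8.14, 7.94 and 7.34 in SHR, against 9.53, 9.40, 9.27, 9.65 and 9.33 in WKY (difference -1.61, standard error 0.15, adjusted p = 9.6e-05), and its second probe set differed by -0.61 (adjusted p = 0.00897). All SHR arrays lay well below the lowest WKY array. Reep1, which shapes the endoplasmic reticulum of axons, had 9.14, 8.96, 9.10 and 8.98 in SHR, against 9.76, 9.79, 9.55, 9.96 and 9.69 in WKY (difference -0.70, adjusted p = 0.0026). Nrsn1, a vesicle membrane protein of neurones, differed by -0.65 (adjusted p = 0.0027), and the neurofilament protein Ina by -0.60 (adjusted p = 0.0055). Neither gene overlapped between the strains.

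The list of magnocellular identity genes had the lowest median of all lists, -0.40. Relative to all genes it was between -0.37 and -0.317 on the 4 scalings, with -0.317 after quantile normalization. The members were chosen with earlier results of these data known, so the rank of this list is a description only. All 12 tested genes had a difference below 0, and 4 passed the test: Ucn, Nmb, Sim1 and Vgf. The list mean was 8.98, 8.90, 8.96 and 8.97 in SHR, against 9.37, 9.35, 9.41, 9.68 and 9.61 in WKY, without overlap. Sim1, a transcription factor needed for the development of SON and PVN neurones, had 6.21, 6.41, 6.70 and 6.85 in SHR, against 7.42, 7.42, 7.89, 7.74 and 7.09 in WKY (difference -0.97, adjusted p = 0.0097). The opioid precursor Pdyn differed by -0.40 (adjusted p = 0.10) and did not pass. The hormones Avp (-0.12, adjusted p = 0.772) and Oxt (-0.03, adjusted p = 0.948), also of this list, did not pass either.

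Ucn encodes urocortin, a peptide of the corticotropin-releasing hormone family. It had 5.14, 5.39, 5.58 and 5.89 in SHR, against 7.34, 7.26, 7.15, 7.58 and 7.53 in WKY. All SHR arrays lay more than a log2 unit below all WKY arrays. The difference of -1.87 (standard error 0.15, adjusted p = 2.68e-05) was called in all 23 other settings. Nmb, which encodes the bombesin-like peptide neuromedin B, had 6.34, 6.12, 5.999 and 6.30 in SHR, against 6.94, 7.29, 7.0, 7.42 and 7.496 in WKY (difference -1.04, adjusted p = 0.00121). Nmb lay close to the 2-fold limit and was called in 16 of 23 settings. Cck, the precursor of cholecystokinin, had 7.91, 7.96, 7.97 and 7.82 in SHR, against 8.81, 8.42, 8.76, 8.30 and 8.43 in WKY (difference -0.63, adjusted p = 0.016).

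Vgf, the precursor of several secreted peptides, had 9.14, 9.24, 8.92 and 8.86 in SHR, against 9.51, 9.32, 9.61, 9.65 and 9.48 in WKY (difference -0.47, adjusted p = 0.04). Cartpt, which encodes the cocaine- and amphetamine-regulated transcript, had 11.01, 10.82, 11.03 and 11.08 in SHR, against 11.39, 11.30, 11.38, 11.90 and 11.54 in WKY (difference -0.52, adjusted p = 0.048). For each of these peptides every SHR array lay below every WKY array. In the whole list of neuropeptides 20 genes were tested, 5 passed, all lower, 15 did not, and the median was -0.28. This list shares Avp, Oxt, Pdyn, Gal, Ucn, Nmb and Vgf with the magnocellular list.

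The promoters of the neuropeptide genes that passed were read, except that of Cck, which was not available. Of those read, 3 hold the palindrome TGACGTCA, the cAMP response element bound by CREB. The sequences come from RefSeq, build GRCr8, and are the reference genome's, not those of SHR or WKY. Each is printed 5′ to 3′ over the 250 bases before the gene's start, with TGACGTCA in capitals.
Ucn (chr6:30957836-30958085, plus strand): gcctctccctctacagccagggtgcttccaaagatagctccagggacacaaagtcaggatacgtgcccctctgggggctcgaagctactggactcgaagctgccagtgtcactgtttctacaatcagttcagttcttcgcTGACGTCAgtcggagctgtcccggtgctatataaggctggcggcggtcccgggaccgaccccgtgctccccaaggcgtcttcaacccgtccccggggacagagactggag
Vgf (chr12:25277021-25277270, minus strand): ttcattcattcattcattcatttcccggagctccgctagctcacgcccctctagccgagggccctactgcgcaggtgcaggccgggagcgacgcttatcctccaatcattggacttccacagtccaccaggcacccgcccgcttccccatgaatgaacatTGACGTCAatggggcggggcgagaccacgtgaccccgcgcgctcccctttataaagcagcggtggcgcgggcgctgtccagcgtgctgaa
Cartpt (chr2:32991236-32991485, minus strand): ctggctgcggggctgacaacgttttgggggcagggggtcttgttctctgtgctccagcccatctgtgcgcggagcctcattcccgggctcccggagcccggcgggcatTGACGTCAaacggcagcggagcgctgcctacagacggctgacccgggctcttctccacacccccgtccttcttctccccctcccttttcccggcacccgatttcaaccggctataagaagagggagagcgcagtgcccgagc
The element starts 110 bases before the start of Ucn, 90 before that of Vgf and 142 before that of Cartpt. Its letters read the same on both strands, and 531 of the 33469 promoters in the table, 1.59%, hold it in a window of this length. Of 17 tested neuropeptide genes with a promoter in the table, 4 hold it, among them 3 of the 4 that passed the test. The other gene that holds it, Scg2, did not pass, and its sequence is not printed. These are few genes, from a list whose members were chosen with earlier results of these data known. The promoter of Nmb does not hold these letters in this window. Among the other lists, the share of tested genes with the element ran from 0% to 17.65%, highest in the immediate early and osmotic list. These shares count genes, whereas the 1.59% counts promoters. A match is a description of the sequence and no evidence of binding.

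Of 25 tested genes of prohormone processing and granules, Chga, Chgb, Pcsk2 and Vgf passed, all lower in SHR, 21 did not pass, and 22 had a difference below 0. With arrays centred on the pan-neuronal mean 3 were higher and 2 lower. The list mean was 9.04, 8.96, 9.06 and 9.02 in SHR, against 9.30, 9.26, 9.11, 9.43 and 9.27 in WKY, without overlap. The list median was -0.28, and relative to all genes it was between -0.242 and -0.165 on the 4 scalings. Chromogranin A (Chga), a granin of the dense-core granule, had 8.55, 8.47, 8.52 and 8.46 in SHR, against 9.12, 9.11, 8.92, 9.29 and 9.23 in WKY. Its SHR arrays lay close together and below all WKY arrays. Chromogranin B (Chgb) had 8.97, 8.81, 9.26 and 9.06 in SHR, against 9.75, 9.67, 9.65, 9.86 and 9.64 in WKY. Pcsk2, a prohormone convertase, had 5.63, 5.97, 5.98 and 6.12 in SHR, against 6.33, 6.72, 6.39, 6.58 and 6.69 in WKY (difference -0.62, adjusted p = 0.02).

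Sorting and early secretory genes outside that list were also among the called genes. Sorcs1, a sorting receptor of the VPS10 family, had 5.45, 5.71, 5.47 and 5.57 in SHR, against 6.93, 6.93, 6.61, 6.62 and 6.603 in WKY (difference -1.19, adjusted p = 1.0e-04). Sec23b, of the coat of vesicles that leave the endoplasmic reticulum, had 8.10, 7.88, 7.92 and 7.96 in SHR, against 9.07, 9.18, 9.06, 9.37 and 9.04 in WKY (difference -1.18, adjusted p = 4.2e-05). Both genes fell without overlap, by just over 2-fold. In the list of endoplasmic reticulum folding and stress genes, Ssr1, of the translocon, was lower (-0.50, adjusted p = 0.018) and the stress sensor Atf6 higher (0.77, adjusted p = 0.0061), 39 of 41 did not pass, and the median was -0.16.

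**Figure D2:**
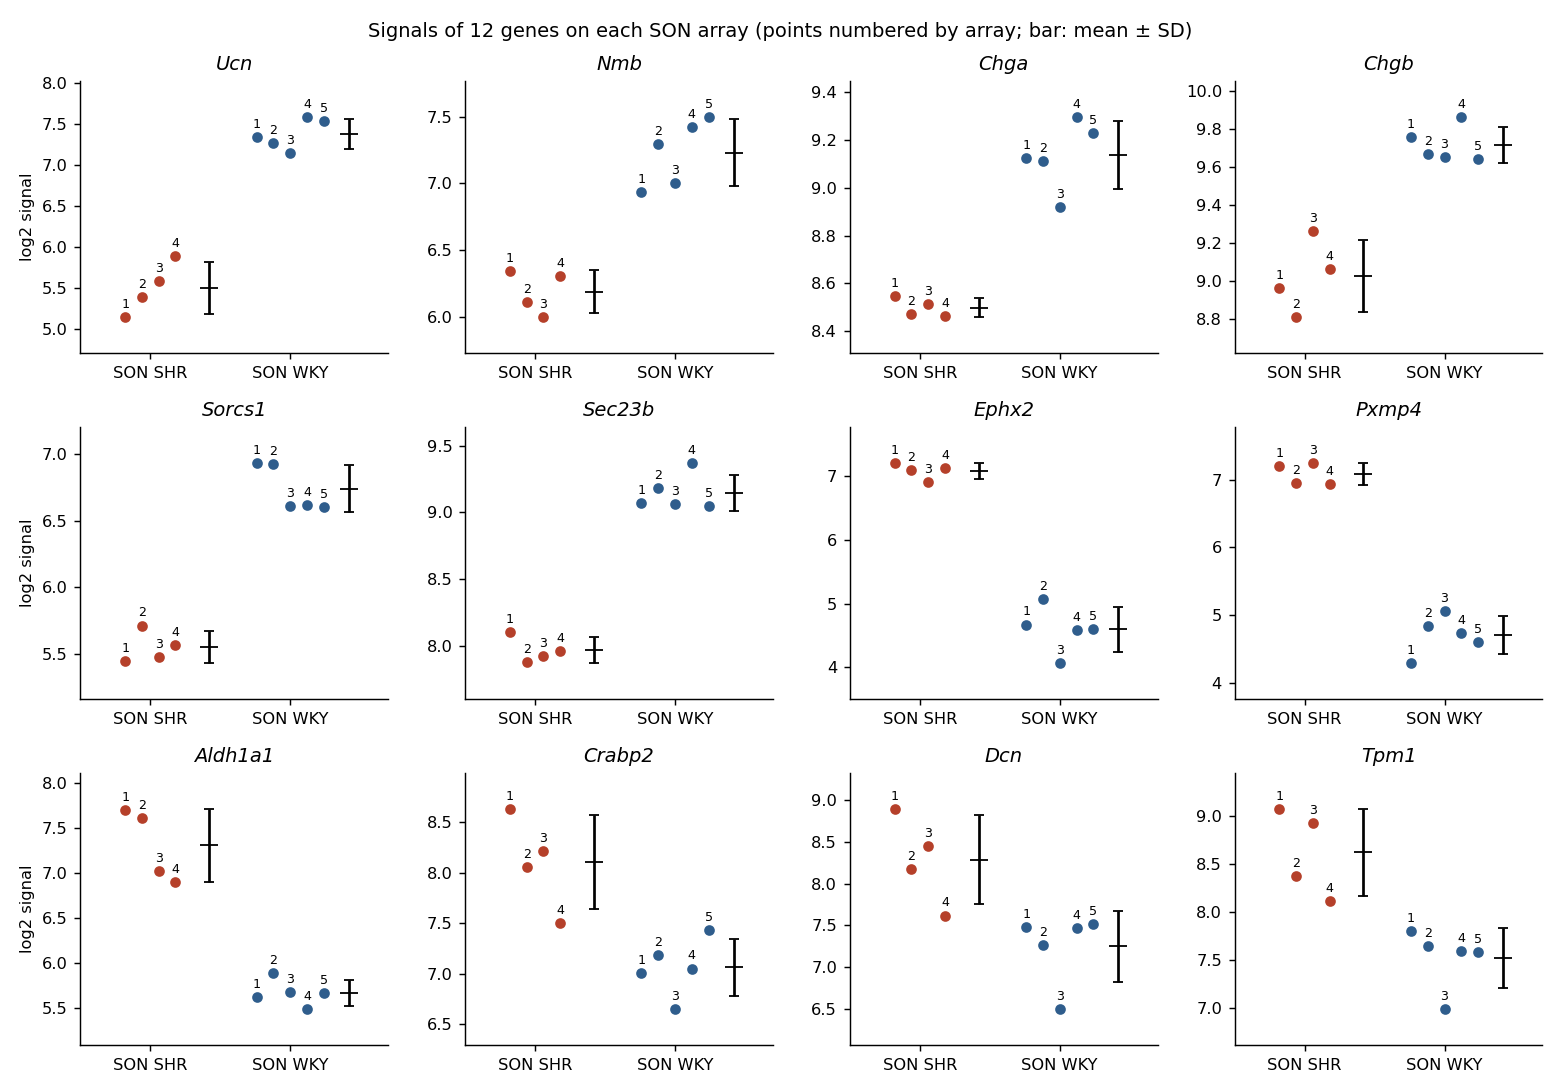
Log2 signals of 12 genes on each SON array, with SHR left of WKY and points numbered by array; bars give the mean ± SD. Ucn, Nmb, Chga, Chgb, Sorcs1 and Sec23b of SHR lie below all WKY arrays, Ephx2 and Pxmp4 lie above them with little spread, and Crabp2, Dcn and Tpm1 are highest on SHR array 1 and lowest in SHR on array 4.

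Of 28 tested genes of synaptic vesicles and exocytosis, Syn2, which tethers vesicles (-0.62, adjusted p = 0.0087), and Apba1, an adaptor of the release site (-0.62, adjusted p = 0.03), passed, and 24 had a difference below 0. The vesicle SNARE Vamp2 (-0.39, adjusted p = 0.053) and the small GTPase Rab3a (-0.34, adjusted p = 0.068) did not pass. Of 37 tested genes of microtubules and axonal transport, Ina, the kinesin Kif5a (-0.44, adjusted p = 0.024) and Crmp1 (-0.43, adjusted p = 0.039) passed, and 36 had a difference below 0. The medians were -0.21 and -0.24, and the list means of both groups of genes did not overlap between the strains. Both lists share genes with the pan-neuronal list, such as Snap25 and Syn2 in the former and Stmn3 and Ina in the latter. They are therefore not separate evidence. Relative to all genes both stayed below 0 on the 4 scalings, from -0.178 to -0.168 for the vesicle genes and from -0.21 to -0.175 for the transport genes.

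Few channel and receptor genes passed the test, and those that did were lower. Of 25 tested potassium channel genes, Kcnip3, a calcium-binding partner of A-type channels, and Kcna2, a delayed rectifier subunit, passed. Kcnip3 had 6.13, 6.12, 6.195 and 6.30 in SHR, against 7.15, 7.52, 6.74, 6.89 and 6.81 in WKY (difference -0.84, adjusted p = 0.01), and Kcna2 differed by -0.60 (adjusted p = 0.024). Of 26 sodium, calcium, HCN and TRP channel genes only Cacng3 passed (-0.46, adjusted p = 0.024). Among 21 tested receptors for GABA, glycine and glutamate 0 passed in limma, with 3 lower and 0 higher at an unadjusted p under 0.05. Of 22 peptide and amine receptors, 3 were lower. Tacr3, the receptor for neurokinin B, had 5.89, 6.10, 6.42 and 5.86 in SHR, against 6.72, 6.91, 7.05, 7.08 and 6.72 in WKY (difference -0.83, adjusted p = 0.0055). Oprk1, the receptor for dynorphin, differed by -0.83 (adjusted p = 0.018), with SHR array 1 lowest at 6.05, and the somatostatin receptor Sstr1 by -0.46 (adjusted p = 0.046). Sctr, the receptor for secretin, which is not in that list, was called with a difference of -1.28 (adjusted p = 0.0044).

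Of 17 astrocyte, 16 oligodendrocyte and 6 ependymal genes tested, 0 passed in limma. At an unadjusted p under 0.05, 0 astrocyte genes were higher and 1 lower, 2 oligodendrocyte genes higher and 0 lower, and 1 ependymal gene higher and 0 lower. Of 11 genes of neighbouring hypothalamic neurones, Th, the rate-limiting enzyme of catecholamine synthesis, was lower (-0.80, adjusted p = 0.022), with 9.03, 8.73, 9.001 and 8.68 in SHR, against 9.36, 9.52, 9.36, 10.01 and 10.02 in WKY. Of 14 microglial and macrophage genes, the Fc receptor Fcgr2b (0.67) and the mannose receptor Mrc1 (0.61), a marker of perivascular and meningeal macrophages, were higher, and the list median was 0.35. Neither gene passed with SHR array 1 left out, nor with the meningeal mean as a covariate.

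Of 39 tested genes of meninges and fibroblasts, 36 had a difference above 0 and 5 passed, all higher: Aldh1a1, Crabp2, Serpinf1, Lum and Dcn. The list median was 0.44, and relative to all genes between 0.467 and 0.48 on the 4 scalings. The list mean was 8.46, 7.62, 8.05 and 7.27 on the SHR arrays, against 7.38, 7.39, 7.03, 7.34 and 7.54 on the WKY arrays. SHR arrays 1 to 3 lay above all WKY arrays, whereas SHR array 4 was lower than 4 of the 5 WKY arrays. The summed signal of the list ranged from 13120 to 26090 in SHR, against 11880 to 17430 in WKY, and none of its genes was at the floor on all arrays. Without SHR array 1 the list median was 0.25 and 2 genes passed. Without both SHR array 1 and WKY array 3, the lowest of its group, it was 0.17.

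Decorin (Dcn), a proteoglycan of collagen fibres, had 8.90, 8.18, 8.45 and 7.62 in SHR, against 7.48, 7.27, 6.50, 7.47 and 7.52 in WKY (difference 1.04, adjusted p = 0.048). Crabp2, which binds retinoic acid in the cell, had 8.63, 8.05, 8.22 and 7.505 in SHR, against 7.003, 7.18, 6.65, 7.05 and 7.43 in WKY (difference 1.04, adjusted p = 0.017). For both genes the order of the SHR arrays was that of the meningeal mean, of which both are members. Aldh1a1, which makes retinoic acid from retinal, had 7.71, 7.61, 7.02 and 6.91 in SHR, against 5.63, 5.89, 5.68, 5.49 and 5.67 in WKY (difference 1.64, adjusted p = 1.9e-04). Its SHR array 2, unlike that of Dcn, was about as high as array 1. The genes of the list with the highest signals did not pass: Ptgds, a prostaglandin synthase, differed by -0.05 (adjusted p = 0.891), Igf2 by 0.34 (adjusted p = 0.432) and Nnat by 0.35 (adjusted p = 0.254).

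The vascular genes did not move as a block. Of 18 tested mural cell genes, 15 had a difference above 0, Tpm1 passed, and the median was 0.31. The list mean was 7.07, 6.46, 6.90 and 6.33 in SHR, against 6.41, 6.38, 5.74, 6.28 and 6.35 in WKY. SHR arrays 1 and 3 were again the highest, and WKY array 3 the lowest. Tagln, an actin-binding protein of smooth muscle, differed by 1.75 (standard error 0.57, adjusted p = 0.11) and did not pass, nor did Tpm2 (1.21, adjusted p = 0.055) or Myl9 (0.82, adjusted p = 0.13). Of 26 tested endothelial genes 0 passed in limma, with 2 higher and 1 lower before adjustment at the same limit. Fli1, of this list, was called on a dimmer probe set (1.61, adjusted p = 0.0197). The median of the endothelial genes was -0.04, and relative to all genes it lay within 0.005 of 0, with a sign that turned between scalings. The endothelial list mean was 7.25, 6.97, 7.08 and 6.94 in SHR, against 7.23, 7.12, 6.77, 7.19 and 7.11 in WKY, so the strains overlapped throughout. Cldn5, a tight junction protein of endothelium, differed by -0.22 (adjusted p = 0.433).

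Of 55 tested extracellular matrix genes, 44 had a difference above 0. Timp1, an inhibitor of matrix proteases, had 7.52, 7.24, 7.26 and 6.86 in SHR, against 6.64, 6.23, 6.32, 6.68 and 6.64 in WKY (difference 0.71, adjusted p = 0.02). Timp1, Lum and Dcn passed, 52 did not, and the median was 0.35, or 0.15 with 0 genes past the threshold in limma without SHR array 1. The list mean was 7.80, 7.17, 7.55 and 6.96 in SHR, against 7.11, 7.08, 6.78, 7.05 and 7.17 in WKY. The SHR arrays stood in the same order as in the meningeal list. The matrix and meningeal lists share genes, among them Col1a1, Dcn and Lum, so a common order is partly built in.

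**Figure D3:**
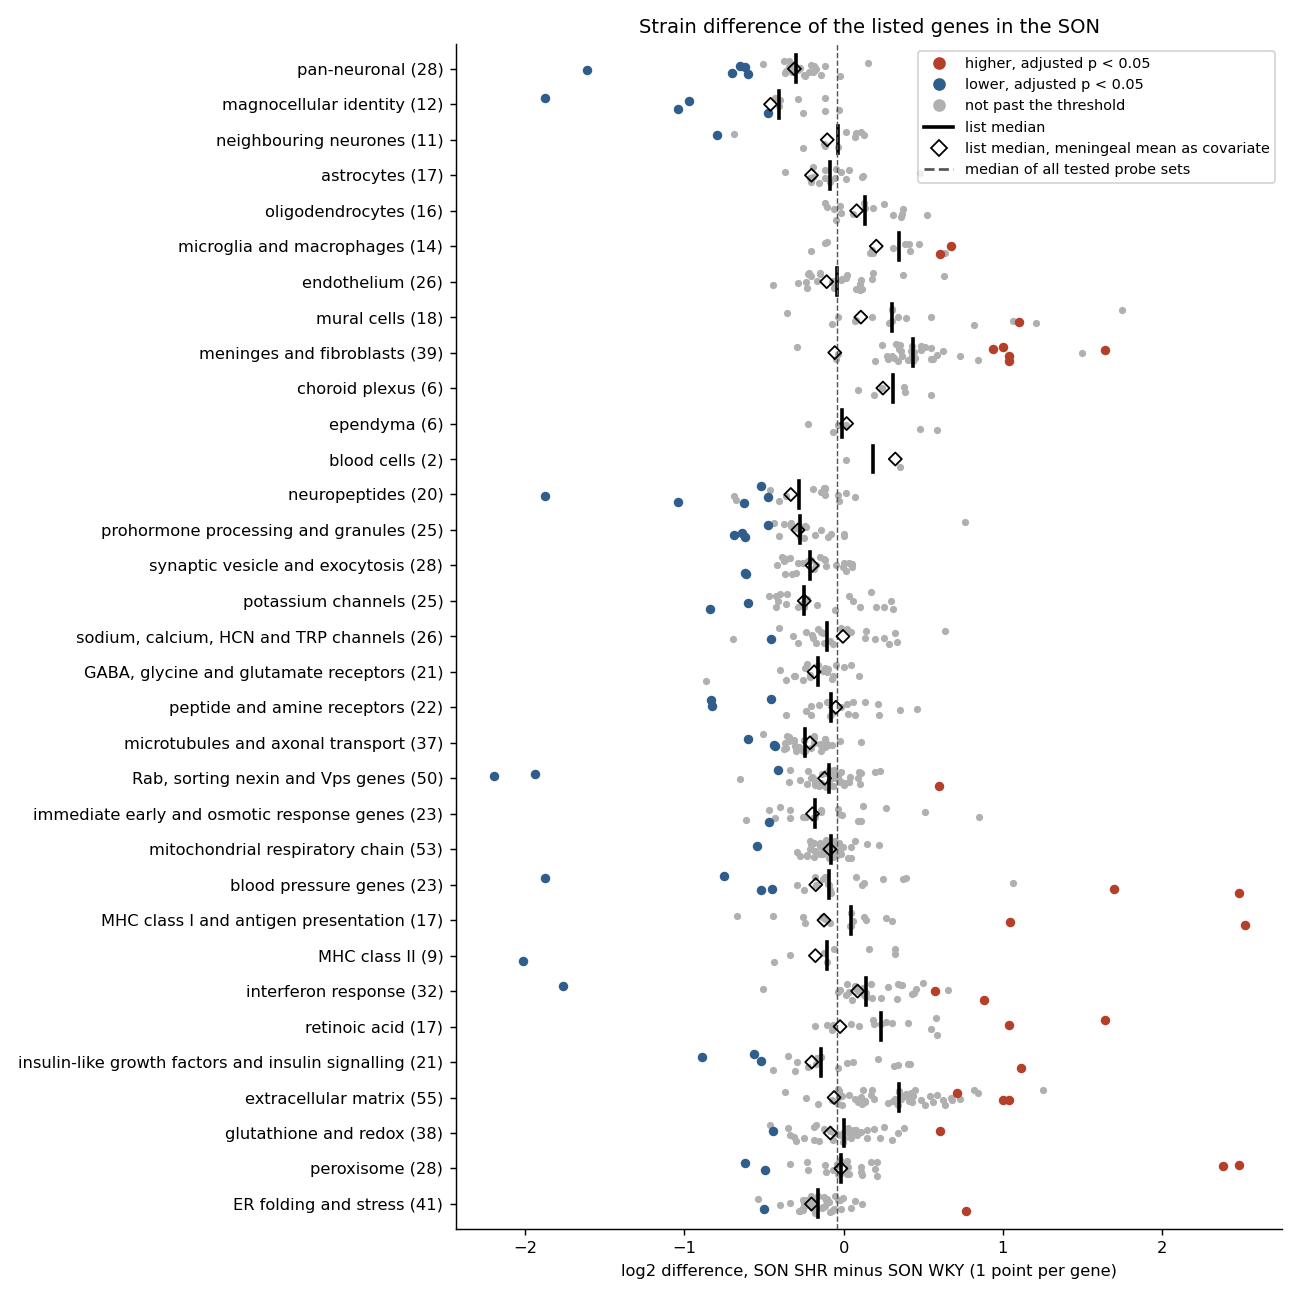
Log2 difference, SHR minus WKY, of every tested gene in 33 lists (number of genes in brackets), with the list median as a bar and, as a diamond, the median with the meningeal list mean as a covariate. The meningeal and matrix medians of 0.44 and 0.35 move to about 0 with the covariate. Its construction largely sets this in advance, since meningeal genes define it and the matrix list shares genes with them. The pan-neuronal and magnocellular medians are -0.30 and -0.40, and -0.31 and -0.46 with the covariate.

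To separate neuronal from meningeal content, the meningeal list mean was added as a covariate to the fit. The adjusted median of the meningeal list was then -0.06 and that of the matrix list -0.06. The construction of the covariate largely sets this in advance, since the meningeal genes define it and the matrix list shares genes with them. The mural median was 0.11. The pan-neuronal median was -0.31, with the count of 5 genes lower as before, the magnocellular median -0.46 and the granule median -0.29. The neuronal medians thus moved little, but fewer single genes passed. In 9 neuronal lists (pan-neuronal, magnocellular, neuropeptide, granule, synaptic, both channel lists, peptide receptors and transport) 23 genes had passed without the covariate, and 10 of them passed with it: Thy1, Reep1, Nrsn1, Ina, Syn2, Ucn, Nmb, Chga, Chgb and Tacr3. The other 13 did not pass, among them Cck at -0.64 (adjusted p = 0.0762), Vgf at -0.52 (adjusted p = 0.108), Cartpt at -0.52 (adjusted p = 0.15), Sim1 at -0.68 (adjusted p = 0.0939), Kcnip3 at -0.79 (adjusted p = 0.0738) and Oprk1 at -0.55 (adjusted p = 0.137). Over all probe sets 106 were higher (0.655%) and 209 lower (1.29%) with the covariate. Of the 34 called probe sets with a single symbol that were higher in SHR, 22 stayed past an adjusted p of 0.05 and 12 did not, whereas of the 36 that were lower, 33 stayed and 3 did not. The 12 were those of the 34 with the highest adjusted p in limma without the covariate, from 0.0058 to 0.048. Their within-strain correlation with the meningeal mean ran from -0.02 (Dstl1) to 0.92 (Crabp2). A covariate also costs precision on 9 arrays, so not passing with it does not mark a gene as meningeal.

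The called probe sets that did not pass with the covariate kept different parts of their difference. Dcn differed by 0.47 with the covariate, Crabp2 by 0.56, Tpm1 by 0.65 and Itgbl1, an integrin-like secreted protein, by 0.50. These calls also depended on other settings, since Dcn was called in 8 of 23 others, Crabp2 in 15 of 23, Tpm1 in 16 of 23 and Itgbl1 in 7 of 22. Aqp1, a water channel, differed by 2.35 on a probe set that ranged from 1.91 to 4.69 in WKY, and by 1.73 with the covariate (adjusted p = 0.17), and its second probe set differed by 0.55 (adjusted p = 0.169). Lpl, lipoprotein lipase, and Fli1, a transcription factor of endothelium and blood cells, kept differences of 1.07 and 1.54 without passing, and so did Dstl1 at 1.39, Vps52 at 1.59, Aard at 0.76, Sema4b at -1.10 and Setd1b at -0.95. Without the covariate, the other tested probe sets of Fli1 differed by 0.36 and 0.10 and did not pass. Pappa2, a protease that frees insulin-like growth factors from their binding proteins, stayed past the threshold at 1.06 (adjusted p = 0.013), against 1.57 without the covariate. Its SHR array 1 was highest at 7.16.

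**Figure D4:**
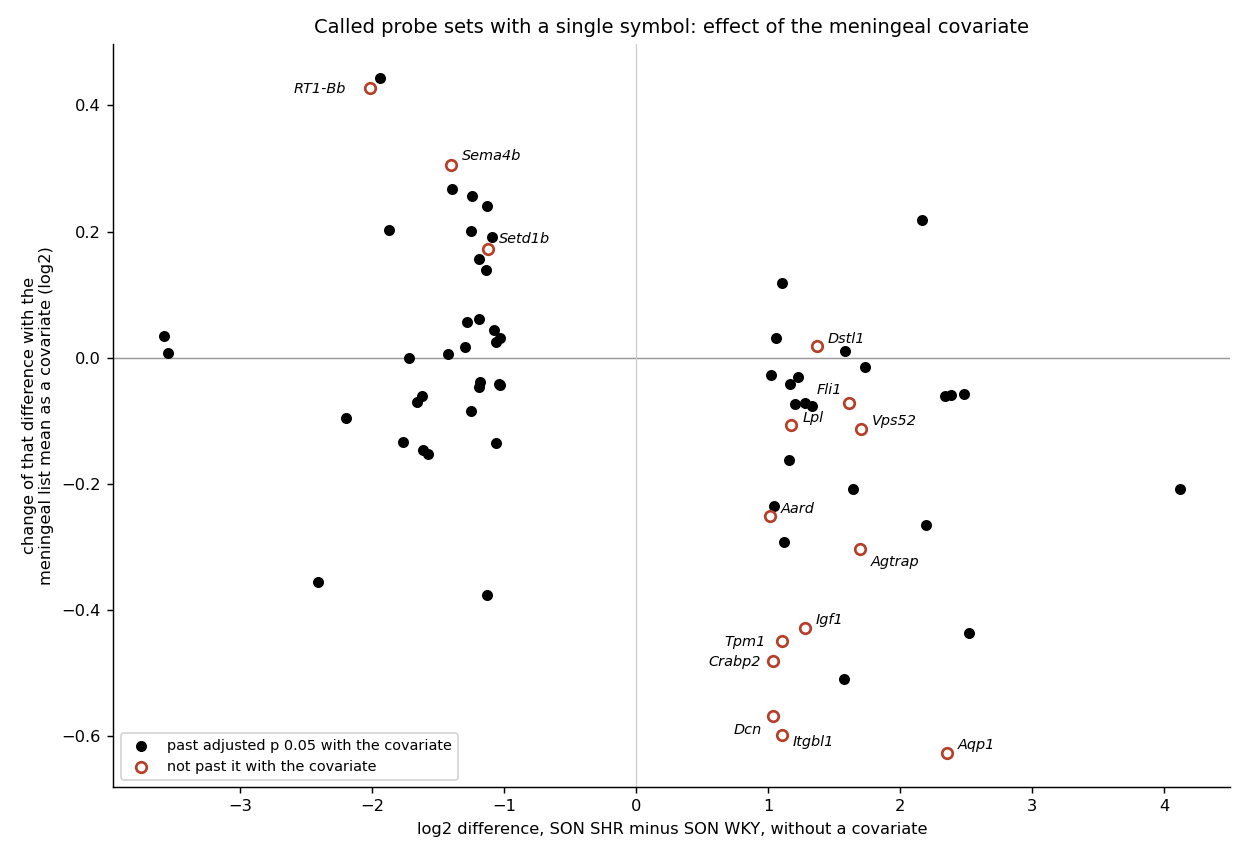
For the 70 called probe sets with a single symbol, the change of the log2 difference when the meningeal list mean was added as a covariate (vertical) against the difference without it (horizontal). Open red points, which are named, did not pass with the covariate: 12 of 34 higher and 3 of 36 lower probe sets, with Dcn at 1.04 without the covariate and 0.47 with it.

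Insulin-like growth factor 1 (Igf1), a growth factor of meninges, vessels and neurones, was higher on both tested probe sets. The first had 7.22, 6.79, 7.21 and 6.51 in SHR, against 5.72, 5.87, 5.60, 6.06 and 5.82 in WKY (difference 1.12, adjusted p = 0.0019), and differed by 0.82 with the covariate (adjusted p = 0.019). The other differed by 1.28, and by 0.85 with the covariate (adjusted p = 0.14). In the list of 21 insulin and growth factor genes, 3 others passed, all lower: the insulin receptor Insr (-0.89, adjusted p = 0.021), the docking protein Irs2 (-0.57, adjusted p = 0.026) and Pik3r1, the regulatory subunit of phosphoinositide 3-kinase (-0.52, adjusted p = 0.038).

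Genes tied to blood pressure moved in both directions. Of 23 tested, Ephx2 and Agtrap were higher, Ucn, Ace, Arg1 and Pik3r1 lower, and 17 did not pass. Ephx2, soluble epoxide hydrolase, which degrades vasodilator epoxides of arachidonic acid, had 7.20, 7.09, 6.91 and 7.13 in SHR, against 4.67, 5.07, 4.07, 4.58 and 4.60 in WKY. The lowest SHR array lay well above the highest WKY array, and the difference was 2.48 (standard error 0.17, adjusted p = 5.73e-06), or 2.43 with the covariate. Agtrap, whose product binds the angiotensin II type 1 receptor and promotes its uptake, had 6.005, 5.63, 6.13 and 5.93 in SHR on its first probe set, against 3.72, 3.23, 4.20, 3.07 and 3.70 in WKY (difference 2.34, adjusted p = 4.2e-05). The second probe set differed by 1.698 (adjusted p = 0.0242), and by 1.39 with the covariate (adjusted p = 0.15).

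Angiotensin converting enzyme (Ace) had 5.43, 5.24, 5.49 and 5.24 in SHR, against 6.16, 6.17, 6.07, 5.78 and 6.34 in WKY (difference -0.75, adjusted p = 0.0051). Enpep, an aminopeptidase of angiotensins that pericytes carry, had 7.36, 6.36, 7.02 and 6.50 in SHR, against 6.19, 5.90, 4.71, 5.71 and 6.22 in WKY. It differed by 1.06 (adjusted p = 0.0734) and did not pass, with the same high SHR arrays 1 and 3 as the mural list. The natriuretic peptide receptor Npr3 was below the filter, at 3.16, 1.91, 3.49 and 2.80 in SHR, against 1.91, 1.91, 2.02, 1.91 and 3.20 in WKY, where 1.91 is the floor.

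RGD1309362, a gene with no name beyond its identifier, had 7.06, 6.95, 7.08 and 6.77 in SHR, against 1.91, 2.94, 2.20, 3.55 and 3.63 in WKY (difference 4.12, adjusted p = 1.8e-05), with 1 WKY array at the floor. The size of this difference depends on the floor and was 2.59 with log2(value + 16), and the WKY arrays of RGD1309362 were widely spread. Pxmp4, a peroxisomal membrane protein, had 7.21, 6.95, 7.25 and 6.94 in SHR, against 4.29, 4.83, 5.06, 4.74 and 4.59 in WKY (difference 2.38, adjusted p = 3.7e-06), and a second probe set rose by 2.16. Zfp597, a zinc finger gene, had 7.83, 7.80, 7.85 and 7.82 in SHR, against 6.36, 6.27, 6.16, 5.64 and 6.02 in WKY. The 4 SHR values of Zfp597 were the same to within a few hundredths. Fry, a scaffold of cell polarity and dendrite growth, had 9.19, 9.07, 9.18 and 9.29 in SHR, against 7.58, 7.72, 7.43, 7.66 and 7.597 in WKY, and the other tested probe set of Fry differed by -0.17 (adjusted p = 0.552).

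Further genes that rose were spread over many functions. Actr8, of the INO80 chromatin remodelling complex, had 7.71, 7.66, 7.55 and 7.65 in SHR, against 6.50, 6.36, 6.45, 6.39 and 6.67 in WKY. Dlgap4, of the postsynaptic density, had 7.52, 7.27, 7.504 and 7.47 in SHR, against 6.43, 6.16, 5.98, 6.08 and 6.15 in WKY. Chi3l1, a secreted chitinase-like protein, had 8.14, 7.99, 7.76 and 7.76 in SHR, against 6.81, 6.50, 6.67, 6.59 and 6.33 in WKY. Dpy19l4, of a family of glycosyltransferases, had 6.63, 6.82, 6.71 and 6.48 in SHR, against 5.75, 5.44, 5.19, 5.42 and 5.47 in WKY. The strains did not overlap for any of these 4 genes. The endosomal sorting nexin Snx27 (1.23), the channel-related Clic2 (1.16), the helicase Rtel1 (1.10), the DNA ligase Lig4 (1.06), Dcaf6 (1.02), Aard (1.01) and Dstl1 (1.37) completed the genes that were higher, Dstl1 with overlap. Other tested probe sets did not pass for Snx27 (-0.14, -0.04 and 0.98), Lig4 (0.62) or Dcaf6 (0.54).

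Rab8b, a small GTPase of vesicle transport to the surface, had 5.12, 5.11, 5.27 and 4.96 in SHR on the probe set with the lower adjusted p, against 6.75, 6.82, 6.87, 6.62 and 6.83 in WKY. On the other it had 5.63, 6.07, 5.90 and 5.29 in SHR, against 7.99, 7.98, 7.79, 7.98 and 7.87 in WKY, so that both fell without overlap, with differences of -1.66 and -2.20. Snx10, a sorting nexin of endosomes, had 7.20, 7.12, 7.28 and 7.32 in SHR, against 8.405, 8.57, 8.52, 8.51 and 8.62 in WKY, while its brighter probe set differed by -0.075 (adjusted p = 0.771). Vps13c, a lipid transfer protein between organelles, differed by -1.94 (adjusted p = 0.0017). In the list of 50 Rab, sorting nexin and Vps genes, Rab8b, Vps13c and Rab6b were lower. Vps52, of a tethering complex of the Golgi, was higher (0.60, adjusted p = 0.026). On its called probe set Vps52 differed by 1.71 and was called in 6 of 22 other settings. In the list 46 did not pass, and the median was -0.09. The 46 include Snx10 and Snx27, which were called on dimmer probe sets (-1.30 and 1.23).

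Matcap1, an enzyme that trims the tail of tubulin, had 6.62, 6.62, 6.56 and 6.35 in SHR, against 7.75, 7.82, 7.80, 7.76 and 7.81 in WKY. Stat3, a transcription factor of cytokine signalling, had 5.24, 4.89, 4.99 and 4.84 in SHR on its called probe set, against 6.79, 6.76, 6.55, 6.29 and 6.46 in WKY. Ddx42, an RNA helicase, had 4.58, 4.75, 4.68 and 4.48 in SHR, against 6.23, 6.58, 6.33, 6.37 and 6.21 in WKY. In all 3 the strains were far apart, yet the second probe sets of Stat3 and Ddx42 differed by -0.34 (adjusted p = 0.116) and -0.01. Cym, a protease, had 5.65, 5.75, 5.77 and 5.59 in SHR, against 6.87, 6.90, 6.65, 7.02 and 6.98 in WKY.

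Ptprj, a receptor tyrosine phosphatase, was at the floor on 3 SHR arrays and at 2.21 on array 3, against 5.76, 5.85, 5.40, 5.60 and 5.09 in WKY. Slc25a27, a mitochondrial carrier of neurones, was likewise at the floor on 3 SHR arrays and at 2.08 on array 3, against 4.75, 5.48, 5.76, 6.01 and 5.65 in WKY. The fitted differences of -3.55 and -3.58 depend on the floor and were -1.74 for each with log2(value + 16). Other tested probe sets of these genes differed by -0.23 for Ptprj and by -0.30 and -0.09 for Slc25a27.

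Of genes whose products act on RNA or DNA, the called probe sets of the m6A reader Ythdf2 (-1.43), the RNA-binding protein Elavl1 (-1.08), the telomere protein Terf2 (-1.19) and the transcription factors Mef2c (-1.62), Klf6 (-1.13) and Zbtb20 (-1.03) were lower. Their other tested probe sets differed by -0.12 for Ythdf2, 0.18 for Elavl1, 0.00074 and -0.42 for Terf2, 0.11 for Mef2c and -0.03 for Klf6, none of which passed, and 1 of the 3 of Zbtb20 was higher (0.74, adjusted p = 0.00573). The histone methyltransferase Setd1b (-1.12) was lower on its called probe set, whereas the chromatin remodelling gene Actr8 was higher. Homer2, a scaffold of the postsynaptic density (-1.40), the semaphorin Sema4b (-1.41), Mcub, a subunit that restrains the mitochondrial calcium uniporter (-1.13), Rragd, a GTPase that signals amino acid supply (-1.24), and the small GTPase Rhof (-1.03) were lower as well. Maip1 (-1.09), Tstd1 (-1.06), Tom1l3 (-1.06), Grifin (-1.25) and the matrix protease Mmp9 (-2.41, with overlap) completed the genes that fell, beside those described with their groups. In SHR, Mmp9 ranged from the floor of 1.91, on 1 array, to 3.98. Its difference was as small as -1.31 among the other settings.

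Genes of the major histocompatibility complex, whose alleles differ between rat strains and whose probe sets may bind related genes, moved both ways. The class I gene RT1-CE16 had 7.80, 7.002, 7.66 and 7.24 in SHR, against 4.92, 4.92, 3.98, 5.09 and 5.63 in WKY (difference 2.52, adjusted p = 3.0e-04). Among class II genes, RT1-Ba was higher by 2.20 on 1 probe set and differed by -0.44 and -1.02 on its other tested probe sets, which did not pass. RT1-Bb, its partner chain, was lower (-2.02, adjusted p = 0.005), and differed by -1.59 with the covariate (adjusted p = 0.0612). Of 17 class I and antigen presentation genes tested, RT1-CE16 and Psmb8 passed, and of 9 class II genes RT1-Bb passed in the list. Psmb8, a subunit of the immunoproteasome, was higher (1.04, adjusted p = 0.004). Of 32 tested interferon response genes, Sp110 and Ifitm1 were higher and Trim30d was lower, with a median of 0.14.

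Of 28 tested peroxisomal genes, Pxmp4 and Ephx2 were higher, and the acyltransferases Crot (-0.62, adjusted p = 0.0126) and Crat (-0.49, adjusted p = 0.0208) lower. The peroxisomal list mean was 7.13, 7.11, 7.07 and 7.13 in SHR, against 6.99, 7.04, 6.95, 7.02 and 6.88 in WKY, without overlap, though the median was -0.02. Of 38 glutathione and redox genes, the glutathione transferase Gstm1 was higher, with 9.69, 9.64, 9.59 and 9.62 in SHR, against 9.12, 8.98, 9.06, 9.13 and 8.86 in WKY, and Gstm7 was lower (-0.44, adjusted p = 0.0476). The SHR arrays of Gstm1 lay above all WKY arrays, by less than 2-fold. Of 53 genes of the mitochondrial respiratory chain, 47 had a difference below 0, but after quantile normalization 21 lay below 0 and 32 above. Ndufv3, a subunit of complex I, passed (-0.54, adjusted p = 0.0289). The list median relative to all genes changed sign between scalings. Of 23 immediate early and osmotic response genes Rasd1 passed (-0.47, adjusted p = 0.0412). Stat3 and Klf6, of that list, were called lower on dimmer probe sets (-1.58 and -1.13). Of 17 retinoic acid genes Aldh1a1 and Crabp2 passed, with a list median of 0.23. Of 6 choroid plexus and 2 blood cell genes 0 passed in limma, with 2 choroid plexus genes and 1 blood cell gene higher before adjustment. Aqp1, of the choroid plexus list, was called on a dimmer probe set (2.35, adjusted p = 0.024). All 6 choroid plexus genes had a difference above 0, with a median of 0.31.

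Where a called gene had a second tested probe set, that probe set often did not pass the test. Of the 66 genes, 40 had a single tested probe set and 26 had more. Another probe set passed the test the same way for 7 of these 26 (Agtrap, Igf1, Pxmp4, Rab8b, Rtel1, Thy1 and Vps52), for 1, Zbtb20, it passed the opposite way (0.74, adjusted p = 0.00573), and for 18 no other passed. Tpm1, for instance, had 4 other tested probe sets, which differed by -0.54 to 0.63.

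Some called genes lie next to each other in the order of protein-coding genes of the GRCr8 annotation. Of 65 called genes that could be placed among 23154, 5 pairs lay at most 5 places apart. RT1-Ba and RT1-Bb are adjacent, with Psmb8 3 places on, and Setd1b and Rhof, both lower, are adjacent. Tpm1 lies 3 places from Rab8b and 4 from Vps13c. Tpm1 was higher and both of these neighbours lower.

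Of the 70 called probe sets with a single symbol, 63 had a difference of the same sign in the PVN and 7 of the opposite sign, and 44 passed the test there the same way. The same shares over all tested probe sets were not taken, so these counts have no background beside them. The labels do not say whether SON and PVN arrays came from the same rats. Whether the effect of strain depended on the nucleus was tested as an interaction over all 19 arrays, SON minus PVN, where 14 of 17095 probe sets passed (0.0819%). Of the called SON genes, Trim30d, Ucn, Cidea and Nmb were among them. Trim30d, a member of the tripartite motif family, had 5.71, 5.47, 5.57 and 5.52 in the SHR SON, against 7.11, 7.45, 6.96, 7.5 and 7.64 in the WKY SON, a difference of -1.76, whereas its difference in the PVN was 0.23 (adjusted p for the interaction 7.27e-06). Ucn differed by -1.87 in the SON and by 0.01 in the PVN (interaction adjusted p = 2.41e-04). The paper, however, reports lower Ucn in the adult SHR PVN, by RT-qPCR on independent samples and by staining of the peptide. The PVN value here is that of 1 probe set on the arrays. Cidea, a lipid droplet protein, differed by -1.14 and 0.09 (interaction adjusted p = 0.00746), and Nmb by -1.04 and -0.06 (interaction adjusted p = 0.0272). Furin, a proprotein convertase chosen after its values were seen, differed by -0.46 in the SON (adjusted p = 0.0281) and 0.38 in the PVN (interaction adjusted p = 0.0339). For Crabp2 the differences were 1.04 and -0.23, and the interaction did not pass (adjusted p = 0.058).

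**Figure D5:**
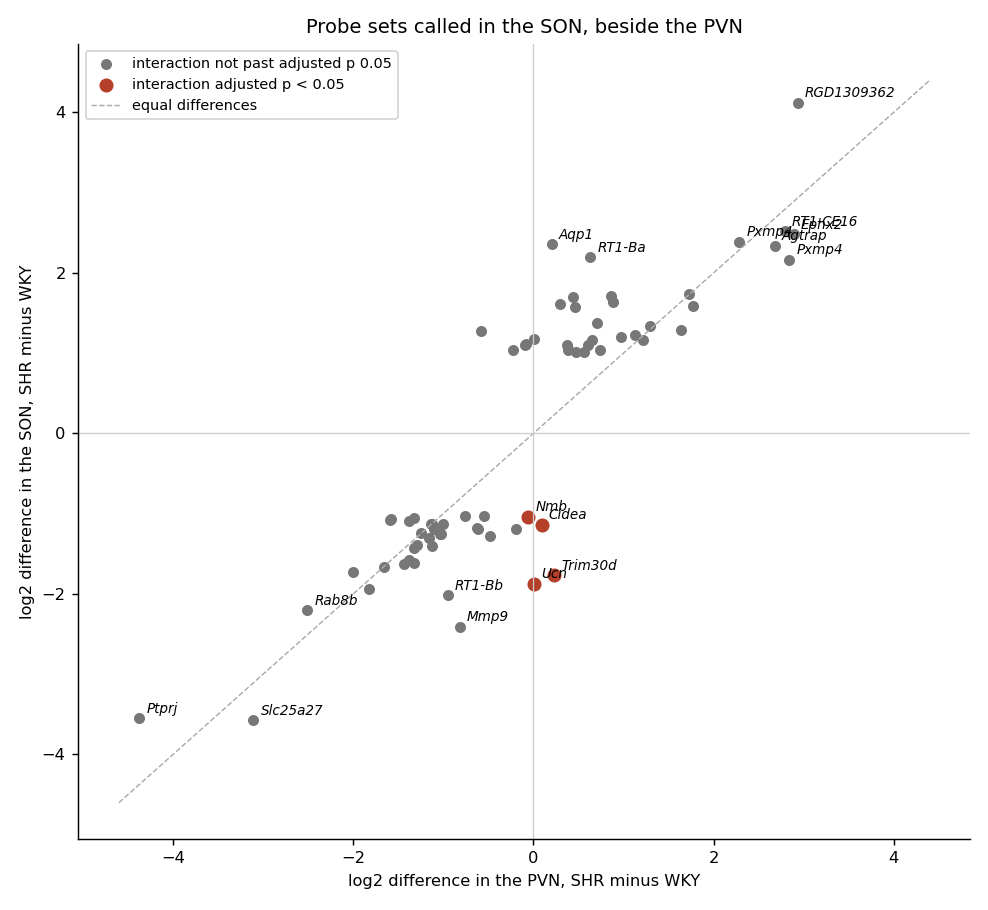
Log2 difference, SHR minus WKY, in the SON (vertical) against that in the PVN (horizontal) for the 70 probe sets called in the SON that have a single symbol. Red points passed the interaction test: Trim30d, Ucn, Cidea and Nmb, with differences from -1.87 to -1.04 in the SON and from -0.06 to 0.23 in the PVN, while Ephx2 lies at 2.48 in the SON and 2.89 in the PVN and Zfp597 at 1.73 in both.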

How the data were processed

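Affymetrix arrays measured RNA of pooled SON of male SHR (4 arrays) and WKY (5 arrays). The deposited values are intensities, which the authors computed with MAS5 and left on a linear scale. Detection calls were not used here, and the fifth SHR SON array was not analysed here. Columns were mapped to samples by title, and 0 sample columns were left unused. Of 31099 probe sets, 57 controls were left out. Each array was scaled to the common median of the 19 arrays, signals were floored at 3.77 (8.33% to 10.5% of probe sets per SON array), and log2 was taken. The filter asked for a group mean, in either strain, at or above the median over probe-set means. Symbols came from the platform annotation, brought up to date by Entrez number (20758 probe sets), with 1 symbol for 20826, several for 436 and none for 9780. 

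SHR was compared with WKY with limma 3.58.1 in R 4.3.3 (lmFit, eBayes, Benjamini-Hochberg over all tested probe sets), with the methods' t-test as an alternative. The procedure was tested on simulated data of 16081 probe sets. It recovered 27 of 50 changes of 1 and 48 of 50 changes of 1.5 on the log2 scale. Recovery also required the 2-fold limit, at which a change of 1 lies, so the 27 does not measure sensitivity. In the lists, genes with several probe sets were represented by the brightest. The genes called, the 33 lists and all members were chosen with earlier results of these data known. Genes named were those with a called probe set, up to 6 per list by adjusted p, the most abundant genes of 4 cell type lists and the blood pressure genes the study names. Alternatives were another scaling, pseudocount, floor, filter, the replicate block, all 19 arrays in the fit, an intensity trend, arrayWeights, the meningeal covariate and each array left out. The precision is limited by the number of arrays. Python 3.11.15 and matplotlib 3.10.9 were used for the figures.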

Additional observations from a re-analysis of the deposited data

Results flagged for a closer look

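Of 72 groups of 4 or 5 values examined for an array far from the others, 5 had such an array, where about 1 in 20 is expected by chance. WKY array 3 lay far below the other WKY arrays in 3 list means, at 6.77 for endothelium (the next was 7.11), 5.74 for mural cells (the next was 6.28) and 6.26 for ependyma (the next was 6.64). For Ptprj and Slc25a27, SHR array 3 was at 2.21 and 2.08 (2.085 before rounding) while the other SHR arrays were at the floor of 1.91.

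The interaction of strain and nucleus (SON minus PVN) passed an adjusted p of 0.05 (limma, 19 arrays) for 4 genes called in the SON. It was -1.99 for Trim30d, -1.88 for Ucn, -1.23 for Cidea and -0.984 for Nmb.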

How the results depend on the processing

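Of 228 probe sets followed over 23 other settings, 4422 values stayed on the same side of the threshold, 189 passed only under the alternative and 566 no longer passed. Among values that passed in either fit, 1 changed sign: the ciliary gene Dnai1, at 0.27 when arrays were centred on the pan-neuronal mean. Changes of sign where neither fit passed were not counted. The count of 124 called probe sets was 69 with log2(value + 16), 55 with the stricter filter, 60 with the methods' t-test, 330 with that centring, and 111 to 145 with 1 array left out. The 586 past the adjusted p were 7233 with that centring, 291 without the filter, 921 with an intensity-trend prior, 1573 with arrayWeights, 176 with the methods' t-test, 315 with the meningeal covariate and 322 to 722 with 1 array left out (339 without SHR array 2, 322 without SHR array 3, 358 without WKY array 2). Same-numbered arrays of the strains correlated at 0.118, 0.035, -0.0153 and 0.0958, so the numbers were not taken as pairs, and a replicate block called 126 and passed 342. The 14 interaction probe sets were 22 after quantile normalization and 6 to 20 with 1 SON array left out (6 without SHR array 3 or WKY array 2, 7 without WKY array 4). Medians moved with the centring to 0.0353 (pan-neuronal), 0.295 (endothelium), 0.639 (mural cells) and 0.0581 (granules), after quantile normalization to -0.197 (pan-neuronal) and -0.165 (granules), and with the covariate to -0.0557 (meninges). The cause was not tested, other than the centring, which sets the pan-neuronal mean equal by construction.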
